A study of Mus musculus with 6 samples.

Results

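The bone morphogenetic protein (BMP) genes described here are 10 of the 52550 genes in a table of RNA-seq counts from mouse macrophages. They were picked by gene symbol as 4 ligands (Bmp2, Bmp4, Bmp5 and Bmp6), 2 receptors (Bmpr1a and Bmpr2), 2 inhibitors (Grem1 and Bambi) and 2 target genes (Id1 and Id3). The macrophages came from MSR1 KO mice, which lack macrophage scavenger receptor 1, or from MSR1 WT mice, both on the C57BL/6 background, with 3 libraries per genotype. In both groups, bone marrow cells were grown for 7 days with 25 ng/ml of M-CSF, a macrophage growth factor, and then shared medium for 48 h with BMSCs, bone marrow mesenchymal stromal cells, across the membrane of a transwell. The study describes the libraries as biological replicates, but whether each came from its own animal is not stated in the sources used here, so p-values measure the spread between these libraries. The knockout is carried by the whole animal, and the age of the mice is not given in the sources used here.

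BMPs are secreted ligands of the TGF-β superfamily, first known for inducing bone. A dimer of ligand brings together type I receptors such as BMPR1A and the type II receptor BMPR2, which leads to phosphorylation of SMAD1, SMAD5 and SMAD9. These join SMAD4 in the nucleus and switch on genes that include the Id family. Secreted proteins such as Gremlin, Noggin and Follistatin bind the ligands outside the cell, while the decoy receptor BAMBI and the inhibitory SMADs damp the signal at the membrane and inside the cell. The question was whether receptors, inhibitors and Id genes followed Bmp4, which had a lower level in the MSR1 KO libraries.

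Bmp2, the ligand with by far the most transcripts, rose 1.31-fold in MSR1 KO macrophages. It was the only one of the 10 genes with an adjusted p under 0.05 in edgeR's quasi-likelihood test. The other 9 genes all had lower estimates in MSR1 KO, from 0.18 to 1.71 on the log2 scale, but none of them passed that test. Under DESeq2's Wald test, Bmp4 and Grem1 passed as well, with adjusted p-values of 0.0021 and 0.013. The estimate of Bmp4 was -1.71. The receptors Bmpr1a and Bmpr2 had -0.85 and -0.18, and the inhibitors Grem1 and Bambi had -0.72 and -0.41. Id3 and Id1 had -0.38 and -0.31. Among 57 other genes of the pathway, Fst, which encodes the secreted inhibitor Follistatin, fell 3.68-fold.

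The deposited counts summed to between 36143518 and 47417448 per library, and levels are given as CPM, the count scaled to the total of its library, while fold changes and tests also use TMM factors. Gene positions are those of the deposited table, most of which match build GRCm38. Where genes are compared with each other, CPM was divided by the combined exon length in kilobases (CPM per kb). Msr1 itself had 1825 to 2118 counts in the MSR1 KO libraries against 7543 to 9219 in the MSR1 WT libraries, so the targeted gene was lower in every library labelled MSR1 KO. All 10 macrophage markers were detected, led by Lyz2 and Csf1r, with a summed level of 24060 to 25390 CPM in MSR1 KO and 25140 to 27950 CPM in MSR1 WT. Among them, Fcgr1 was 2.2-fold higher in MSR1 KO, with an adjusted p of 0.018 in edgeR's quasi-likelihood test. Mrc1 was 1.31-fold lower, with an adjusted p of 0.037 in the same test. Both were named after their values were seen. All 15 stromal markers, led by Col1a2 and Col1a1, were detected as well, and their summed level was 1347 to 1764 CPM in MSR1 KO against 1796 to 2295 CPM in MSR1 WT, with no overlap. In bulk RNA, fewer cells of a type and less RNA per cell cannot be told apart.

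Bmp2 (ENSMUSG00000027358.6, chr2:133552159-133562885) encodes a ligand that induces bone formation. Its level was 117, 100 and 114 CPM in MSR1 KO replicates 1, 2 and 3, and 83.1, 88.6 and 87.0 CPM in MSR1 WT replicates 1, 2 and 3. Every MSR1 KO library lay above every MSR1 WT library. The means were 110 ± 8.84 CPM (SD, n = 3) and 86.3 ± 2.84 CPM (SD, n = 3). The log2 fold change was 0.39 with a standard error of 0.08 and an adjusted p of 0.038 in edgeR's quasi-likelihood test, adjusted over all 16402 tested genes. Of all tested genes, 2.25% were higher at an adjusted p under 0.05, and in 9.82% every MSR1 KO library lay above every MSR1 WT library. The call is narrow. It was lost when any library other than MSR1 KO replicate 2 was left out, and the adjusted p ranged from 0.0021 to 0.15 over 12 alternative settings, while the fold change stayed between 0.35 and 0.45 on the log2 scale.

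Bmp4 (ENSMUSG00000021835.14, chr14:46383520-46390669) encodes a close relative of BMP2 that binds the same receptors. It had 28, 64 and 44 counts in MSR1 KO replicates 1, 2 and 3, and 210, 95 and 158 counts in MSR1 WT replicates 1, 2 and 3. All MSR1 KO libraries lay below all MSR1 WT libraries, but MSR1 KO replicate 2 and MSR1 WT replicate 2 came close to each other, at 1.59 and 2.04 CPM. The means were 1.10 ± 0.436 CPM in MSR1 KO and 3.67 ± 1.55 CPM in MSR1 WT (SD, n = 3 each). The log2 fold change was -1.71 with a standard error of 0.41, and the adjusted p was 0.056 in edgeR's quasi-likelihood test. It was under 0.05 in 2 of 12 alternative settings, DESeq2's Wald test and a filter of at least 10 counts in every library. The study picked Bmp4, Bmp5 and Bmp6 from these same libraries, so their lower levels here are not independent evidence of that direction.

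Bmp6 and Bmp5, ligands of another BMP subgroup, had fewer counts. Bmp6 (ENSMUSG00000039004.6, chr13:38345107-38500302) had 7, 10 and 6 counts in MSR1 KO, and all MSR1 WT libraries were higher in CPM with 19, 35 and 25 counts. The log2 fold change of Bmp6 was -1.65 with a standard error of 0.51 and an adjusted p of 0.12 in edgeR's quasi-likelihood test. Bmp5 (ENSMUSG00000032179.7, chr9:75775364-75900310) had 24, 60 and 30 counts in MSR1 KO and 81, 69 and 87 counts in MSR1 WT. The groups overlapped in CPM, with MSR1 KO replicate 2 at the level of MSR1 WT replicate 2. For Bmp5 the log2 fold change was -0.97 with a standard error of 0.40 and an adjusted p of 0.24 in the same test, and -1.48 without MSR1 KO replicate 2. Bmp5 met the study's definition of a changed gene, given further on, but not without MSR1 KO replicate 1, MSR1 KO replicate 3, MSR1 WT replicate 1 or MSR1 WT replicate 3, and Bmp6 met it but not without MSR1 WT replicate 2. Of the exon bases of Bmp5, 46.7% are shared with Gm26903 on the other strand, and the strand setting of the counting is not given in the sources used here, so its counts are uncertain. Bmp6 shares 5.74% of its exon bases with Txndc5 on the other strand.

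The ligands were far apart in level. Bmp2 stood at 31.0 CPM per kb in MSR1 KO and 24.3 CPM per kb in MSR1 WT, whereas Bmp4 stood at 0.489 and 1.63 CPM per kb. Of the summed level per kb of the 4 ligands, Bmp2 made up 98.3%, 96.1% and 98.2% in MSR1 KO replicates 1, 2 and 3, and 89.0%, 94.4% and 91.1% in the same replicates of MSR1 WT. Bmp4 made up 1.03% to 2.42% in MSR1 KO and 3.43% to 8.67% in MSR1 WT. The summed level of the 4 ligands was thus set almost wholly by Bmp2, and it was 31.8 ± 2.19 CPM per kb in MSR1 KO against 26.5 ± 0.321 CPM per kb in MSR1 WT (SD, n = 3 each), with all MSR1 KO libraries higher. For each 1000 counts of Bmp2, the libraries held 6.64, 15.9 and 8.13 counts of Bmp4 in MSR1 KO and 61.6, 23.0 and 44.3 counts in MSR1 WT.

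**Figure D1:**
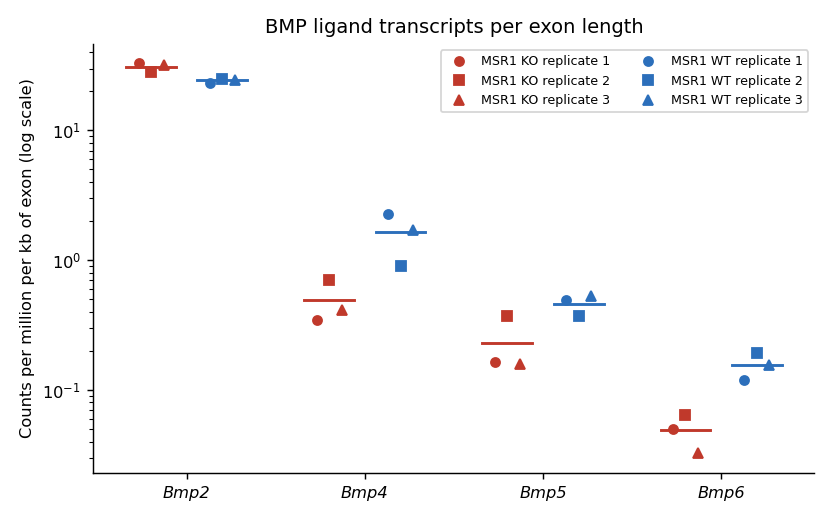
Level of Bmp2, Bmp4, Bmp5 and Bmp6 in CPM per kb of exon, on a log axis, with a point for each of the 3 MSR1 KO and 3 MSR1 WT libraries and a line at each group mean. Bmp2 lies far above the other ligands in every library and higher in MSR1 KO, while Bmp4 and Bmp6 lie lower in MSR1 KO.

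Neither receptor gene passed the adjusted test. Bmpr2 (ENSMUSG00000067336.6, chr1:59763400-59879014), which encodes the type II receptor, was at 104, 100 and 86.3 CPM in MSR1 KO and at 114, 108 and 116 CPM in MSR1 WT. All MSR1 KO libraries lay below all MSR1 WT libraries, by a small amount. For Bmpr2 the log2 fold change was -0.18, with a 95% interval of -0.38 to 0.02 and an adjusted p of 0.31 in edgeR's quasi-likelihood test. Bmpr1a (ENSMUSG00000021796.14, chr14:34410734-34503341), which encodes a type I receptor, had 83, 423 and 414 counts in MSR1 KO and 605, 628 and 481 counts in MSR1 WT. MSR1 KO replicate 1 stood apart, at 2.30 CPM against 10.5 and 8.73 CPM in its own group and 11.7 to 14.8 CPM in MSR1 WT. The log2 fold change of Bmpr1a was -0.85 with a standard error of 0.45 and an adjusted p of 0.35 in the same test, and -0.43 without that library. Without MSR1 KO replicate 2 it was -1.22 and met the study's definition.

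The inhibitors were lower, though neither passed the adjusted test. Grem1 (ENSMUSG00000074934.3, chr2:113746164-113758646) encodes Gremlin, a secreted protein that binds BMP2 and BMP4, and had 12.6, 14.4 and 8.06 CPM in MSR1 KO and 17.9, 22.8 and 18.1 CPM in MSR1 WT. The groups did not overlap, and Grem1 was 1.65-fold lower in MSR1 KO, with a log2 fold change of -0.72, a standard error of 0.21 and an adjusted p of 0.099 in edgeR's quasi-likelihood test. Under DESeq2's Wald test its adjusted p was 0.013, and without MSR1 KO replicate 3 it no longer met the study's definition. Bambi (ENSMUSG00000024232.1, chr18:3507957-3516404) encodes a receptor-like protein without a kinase domain. Its level was 4.48, 4.78 and 5.08 CPM in MSR1 KO against 6.90, 6.58 and 5.96 CPM in MSR1 WT, again without overlap but with a smaller distance. For Bambi the log2 fold change was -0.41 with a standard error of 0.15 and an adjusted p of 0.19 in edgeR's test.

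The Id genes encode inhibitors of basic helix-loop-helix transcription factors and are widely used as readouts of BMP signalling. Id3 (ENSMUSG00000007872.3, chr4:136143497-136145755) had 12.0, 16.7 and 13.7 CPM in MSR1 KO and 18.1, 20.1 and 18.2 CPM in MSR1 WT, with no overlap. The log2 fold change of Id3 was -0.38, with a 95% interval of -0.70 to -0.07 and an adjusted p of 0.18 in edgeR's quasi-likelihood test. Id1 (ENSMUSG00000042745.9, chr2:152736251-152737410) had 3.65, 3.89 and 2.40 CPM in MSR1 KO and 2.93, 4.87 and 4.78 CPM in MSR1 WT, so the groups overlapped. Its log2 fold change was -0.31, with a 95% interval of -0.93 to 0.31 and an adjusted p of 0.61 in the same test. The interval of Id1 includes both no change and a fall of nearly the size of that of Bmp5.

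**Figure D2:**
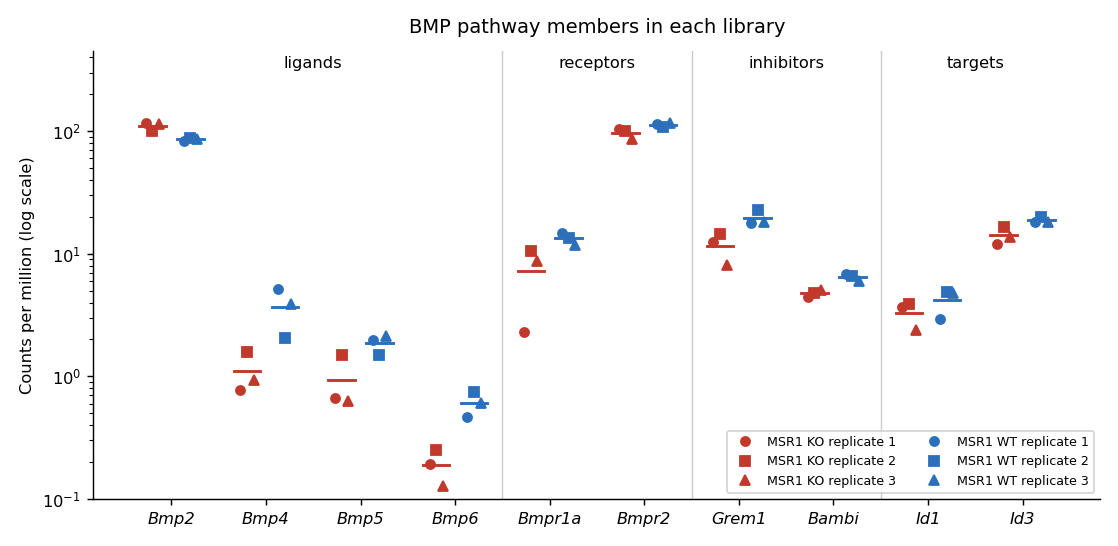
CPM of each of the 10 genes, on a log axis, in the 3 MSR1 KO and 3 MSR1 WT libraries, with the replicate number shown by the marker and a horizontal line at the group mean. In 7 genes all MSR1 KO libraries lie below all MSR1 WT libraries, in Bmp2 all lie above, and in Bmp5 and Id1 the groups overlap.

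Counted together, 7 of the 10 genes had all MSR1 KO libraries below all MSR1 WT libraries, against 15.8% of all tested genes. By the definition of a differentially expressed gene in the study, a fold change above 1.5 with an unadjusted p under 0.05, 4 were lower (Bmp4, Bmp5, Bmp6 and Grem1), against 5.05% of all tested genes, and 0 were higher, against 3.59%, since Bmp2 differed by less than 1.5-fold. At an adjusted p under 0.05 in edgeR's quasi-likelihood test, 0 were lower, against 2.66% of all tested genes. At an unadjusted p under 0.05, 6 were lower, against 10.2% of all tested genes. By DESeq2, 2 (Bmp4 and Grem1) were lower at an adjusted p under 0.05, against 5.2% of the genes to which it gave one, and Bmp2 was higher, against 4.54%. The median log2 fold change of the 10 genes was -0.56, beside 0.00 over all tested genes, and 9 of the 10 estimates were below 0, beside 50.4% of all tested genes. Of the 4 genes lower by the study's definition, 3 are the ligands it had picked. Those 3 ligands also enter the other counts and the median above, which are therefore not independent of that choice.

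The levels per kb in MSR1 WT ran from Bmp2 (24.3 CPM per kb) through Id3 (10.5), Bmpr2 (6.25), Grem1 (4.72), Id1 (3.62), Bmpr1a, Bmp4 (1.63), Bambi (1.28) and Bmp5 (0.462) to Bmp6 (0.156). Within that order, the mean ± SD ranges of Grem1 and Id1, of Bmpr1a and Bmp4, and of Bmp4 and Bambi overlapped. In MSR1 KO, Bmp4 (0.489 CPM per kb) stood below Bambi (0.943), and the range of Bmp4 overlapped those of Bmp5 (0.231) and Bmpr1a. The ranges of Id1 (2.86) and Grem1 (2.81) and those of Bmpr1a (1.13) and Bambi also overlapped there. Bmp2, Id3 and Bmpr2 kept the top of the order in both genotypes.

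The genes whose pattern over the 6 libraries was most like that of Bmp4 were Ebf3, Igf2, Gm9780, Ptx3 and Msi1, with a root mean square difference of centred log2 CPM of 0.224 to 0.352 among 13608 genes with a mean of at least 1 CPM. Ebf3 encodes a transcription factor, Igf2 a growth factor, Ptx3 a secreted pentraxin and Msi1 an RNA-binding protein. The same measure was 0.422 for Bmp5, 0.623 for Bmp6, 0.675 for Bmpr1a, 0.725 for Grem1, 0.775 for Id3, 0.783 for Bambi, 0.866 for Bmpr2, 0.937 for Id1 and 1.15 for Bmp2, so the receptor, inhibitor and Id genes lay between the other ligands and Bmp2. Bmp5 ranked 22 in that order, Grem1 767 and Bmp2 12305. The measure for a gene with no change was not computed, so these values do not show how far each gene followed Bmp4.

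Promoter sequence is shown for the 3 genes called lower by the study's definition whose start in RefSeq (build GRCm38.p6) lies within 2 bases of the gene start in the deposited table. Each runs 5′ to 3′ on the strand of the gene and ends at the base before the start. Capitals mark GGCGCC, a motif bound by SMAD1 and SMAD5, which reads the same on both strands. It occurs once, starting at position -78, in the window of Grem1 and not in those of Bmp4 and Bmp5.
Bmp4 (chr14:46390670-46390919, minus strand): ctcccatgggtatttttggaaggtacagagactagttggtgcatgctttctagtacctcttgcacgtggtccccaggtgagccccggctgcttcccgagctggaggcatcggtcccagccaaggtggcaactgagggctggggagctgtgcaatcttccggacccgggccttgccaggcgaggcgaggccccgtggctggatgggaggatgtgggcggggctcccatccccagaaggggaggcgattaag
Bmp5 (chr9:75775115-75775364, plus strand): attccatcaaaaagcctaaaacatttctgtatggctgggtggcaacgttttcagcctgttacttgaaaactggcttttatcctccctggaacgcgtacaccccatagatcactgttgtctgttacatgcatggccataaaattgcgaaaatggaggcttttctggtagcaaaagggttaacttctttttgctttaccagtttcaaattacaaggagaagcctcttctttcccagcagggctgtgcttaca
Grem1 (chr2:113758649-113758898, minus strand): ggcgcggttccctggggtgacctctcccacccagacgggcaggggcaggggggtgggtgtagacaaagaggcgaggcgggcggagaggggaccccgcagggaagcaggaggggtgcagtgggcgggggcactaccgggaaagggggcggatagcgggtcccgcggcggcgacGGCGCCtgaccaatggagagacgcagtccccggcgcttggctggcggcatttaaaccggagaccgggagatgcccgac
Of the 10 genes, 7 had an entry, and Bmpr1a and Bmpr2 also hold the motif once, at -198 and -105, while Bmp6 and Id3 hold none. The RefSeq starts of those 4 genes lie 325 to 879 bases from the starts in the table. Among 32851 promoter windows of 250 bases, 9.59% hold GGCGCC. The shorter SMAD motif GTCT, searched on both strands, is in 82.9% of them. A match in letters is a description and does not show binding.

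A list of 57 other genes of the pathway places these values in context. Of these, 37 were tested, 2 were lower at an adjusted p under 0.05 in edgeR's quasi-likelihood test, beside 2.66% of all tested genes, and 0 were higher. At an unadjusted p under 0.05, 11 were lower, beside 10.2% of all tested genes, and 1 was higher, beside 8.65%. DESeq2 called 7 lower, beside 5.2% of its genes, and 0 higher at an adjusted p under 0.05. By the study's definition 6 were lower, beside 5.05%, and 0 higher. The median log2 fold change was -0.24, and 29 of the 37 estimates were below 0, beside 50.4% of all tested genes.

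The 2 that passed were secreted inhibitors. Fst encodes Follistatin, which binds activins and several BMPs, and had 95, 91 and 92 counts in MSR1 KO and 387, 341 and 366 counts in MSR1 WT. The replicates agree closely within each group, and the groups are 3.68-fold apart. Its log2 fold change was -1.88 with a standard error of 0.19 and an adjusted p of 0.0045 in edgeR's quasi-likelihood test, and it was under 0.05 in 12 of 12 alternative settings, from 9.1e-13 to 0.042. Chrdl1, which encodes the BMP-binding protein Chordin-like 1, had 12, 8 and 16 counts in MSR1 KO and 39, 59 and 104 counts in MSR1 WT. It was 5.3-fold lower, with a log2 fold change of -2.41, a standard error of 0.50 and an adjusted p of 0.036 in the same test, but it passed in only 4 of 11 alternative settings, and in none of those that left out 1 library. For each 1000 counts of Bmp2, the libraries held 22.5, 22.6 and 17.0 counts of Fst in MSR1 KO and 114, 82.5 and 103 counts in MSR1 WT.

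All 14 tested inhibitors of the list, of 19 in it, had estimates below 0, with a median of -0.30, beside 50.4% of all tested genes below 0, and in 8 of them the groups did not overlap, beside 15.8%. The most abundant was Fstl1, a secreted relative of Follistatin, with 2901, 5300 and 4294 counts in MSR1 KO and 7236, 7220 and 7133 in MSR1 WT. Its log2 fold change of -0.71 met the study's definition but had an adjusted p of 0.056 in edgeR's quasi-likelihood test. Fstl3, a further relative, met the definition with -0.70 and an adjusted p of 0.14 in that test, and 47.3% of its exon bases are shared with Prss57 on the other strand. Fstl1 no longer met the definition without MSR1 KO replicate 1, and Fstl3 without MSR1 KO replicate 3. Smurf2, a ubiquitin ligase that marks SMADs and receptors for degradation, had a log2 fold change of -0.22 and an adjusted p of 0.21. Smad6 and Smad7, the inhibitory SMADs that BMP signalling itself induces, were named after their values were seen. Their log2 fold changes were -0.57 and -0.17, with adjusted p-values of 0.13 and 0.62 in edgeR's test.

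None of the 11 further ligands had enough counts to be tested, with at most 16 counts in any library, reached by Gdf6, and 3 (Bmp10, Bmp15 and Gdf2) had no count at all, which allows up to 0.0633 to 0.083 CPM in these libraries, for counting error only. The 7 tested receptors and co-receptors had a median of 0.06. Of these, Acvrl1, a type I receptor, had a log2 fold change of 0.16, and Neo1, which encodes the co-receptor Neogenin, one of -0.48 with an adjusted p of 0.055 in edgeR's quasi-likelihood test. Rgma, a co-receptor gene with only 20 to 26 counts in MSR1 KO and 44 to 59 in MSR1 WT, met the study's definition with -1.05, but not without MSR1 KO replicate 2, MSR1 KO replicate 3 or MSR1 WT replicate 1.

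The SMADs carry the signal to the nucleus. Smad4 had a log2 fold change of 0.04 with a 95% interval of -0.15 to 0.24. Smad5 had -0.24 with an interval of -0.95 to 0.47, and MSR1 KO replicate 3 stood apart with 769 counts against 1593 and 1631 in its own group and 1558 to 2066 in MSR1 WT. Of the genes for proteases that process BMPs or their inhibitors, Furin had -0.04 and Bmp1, which encodes a metalloprotease that cleaves Chordin and procollagens, had -0.52 with an adjusted p of 0.11 in edgeR's quasi-likelihood test.

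Among 8 tested target genes of the list the median log2 fold change was -0.11. Id2, the most abundant, had 64.6 ± 3.74 CPM in MSR1 KO and 65.3 ± 6.46 CPM in MSR1 WT (SD, n = 3 each), with a log2 fold change of 0.02 and a 95% interval of -0.20 to 0.23. Runx2, a transcription factor of the bone lineage, also had 0.02, with an interval of -0.33 to 0.37. Atoh8, a transcription factor gene, had 102, 151 and 117 counts in MSR1 KO against 221, 228 and 240 in MSR1 WT and was the only one of the 8 to meet the study's definition, with a log2 fold change of -0.80 and an adjusted p of 0.071 in edgeR's quasi-likelihood test. Estimates over the 8 target genes thus lay on both sides of 0, up to 0.36.

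**Figure D3:**
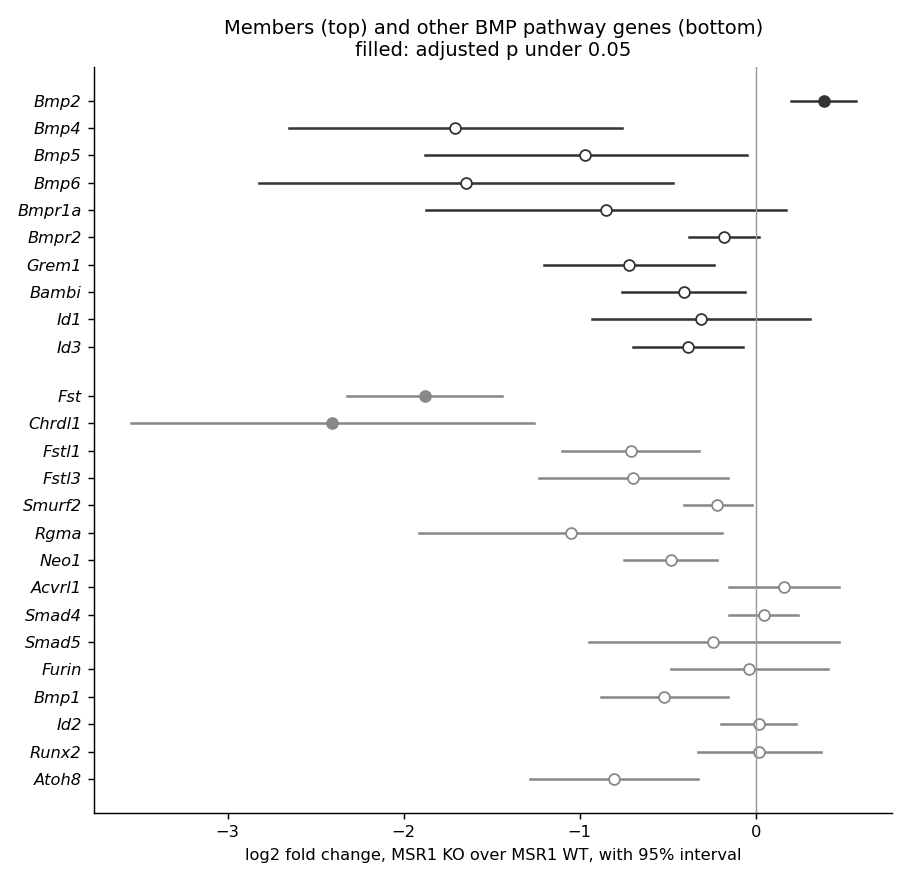
Log2 fold change, MSR1 KO over MSR1 WT, with its 95% interval for the 10 genes and for 15 other pathway genes, where filled points have an adjusted p under 0.05. Bmp2 lies to the right of 0, Fst and Chrdl1 far to the left, and Id2, Runx2 and Smad4 at 0.

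Several of these genes are also made by stromal cells, so their levels stand beside the stromal markers. Of the 15 stromal markers, 4 (Pdgfra, Pdgfrb, Cxcl12 and Prrx1) were lower at an adjusted p under 0.05 in edgeR's quasi-likelihood test, beside 2.66% of all tested genes, and the median log2 fold change was -0.39. Of the other 11, 9 had estimates below 0, and 2 above. Thy1 was 2.47-fold higher in MSR1 KO by the study's definition, with every MSR1 KO library above every MSR1 WT library and an adjusted p of 0.091 in edgeR's test, and Lum had a log2 fold change of 0.46. Thy1, Lum and the 4 that fell were named after their values were seen. Within each genotype, Bmp4 and Bmp5 had their MSR1 KO maximum in replicate 2 and their MSR1 WT minimum in replicate 2, as did the summed stromal level, at 1764 CPM and 1796 CPM. The summed level of the endothelial markers, given next, had its maximum and minimum in the same libraries. Bmp6, Grem1, Id1 and Id3 instead had their MSR1 WT maximum in replicate 2. Bmp2 had both its MSR1 KO minimum and its MSR1 WT maximum in replicate 2. The summed level of 8 endothelial markers, led by Pecam1 and Cdh5, was 118 to 144 CPM in MSR1 KO and 83.4 to 122 CPM in MSR1 WT. The median log2 fold change of the 8 was 0.48, and 7 of the estimates were above 0. Pecam1 was 1.65-fold higher at an adjusted p of 0.027 in edgeR's test. The exception was Vwf, also named after its values were seen. It was 2.56-fold lower by the study's definition at an adjusted p of 0.051 in edgeR's test. The summed level of 7 neutrophil markers, led by Ngp and S100a9, was 590 to 988 CPM in MSR1 KO and 398 to 770 CPM in MSR1 WT. The groups overlapped in this sum, but all 7 estimates were above 0, with a median log2 fold change of 0.35.

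Counts were then set against the counts of the 15 stromal markers in the same library, a scale chosen after the data were seen and given with no test. The stromal sum was itself 1.38-fold higher in MSR1 WT, so the scale lifts every gene in MSR1 KO by about that much, and Col1a1 and Col1a2 made up 61.0% to 67.8% of it. For each 100000 stromal-marker counts, Bmp4 had 57.5, 90.4 and 68.9 in MSR1 KO and 223, 113 and 187 in MSR1 WT, which is 2.41-fold lower with no overlap. Fst had 195, 128 and 144 in MSR1 KO against 411, 407 and 433 in MSR1 WT, 2.68-fold lower with no overlap. Bambi had 333, 271 and 377 against 301, 367 and 288, and Id3 had 889, 945 and 1020 against 791, 1120 and 883, with overlap in both.

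The result for Bmp4 depended on the marker. Set against each of the 15 markers alone, Bmp4 was 1.42-fold (Cxcl12) to 9.03-fold (Thy1) lower in MSR1 KO, and all MSR1 KO libraries lay below all MSR1 WT libraries for 10 of the 15. Against Pdgfra, Pdgfrb, Cxcl12 and Prrx1, the markers that fell, and against Lum, the groups overlapped. For each 100 counts of Pdgfra, Bmp4 had 12.4, 19.2 and 14.1 in MSR1 KO and 28.0, 14.6 and 22.8 in MSR1 WT. Fst was 1.59-fold (Pdgfra) to 10.7-fold (Thy1) lower, without overlap for 14 of the 15 and with overlap against Lum. No scale by stromal markers separates the part of stromal transcripts in these values, which was not tested.

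**Figure D4:**
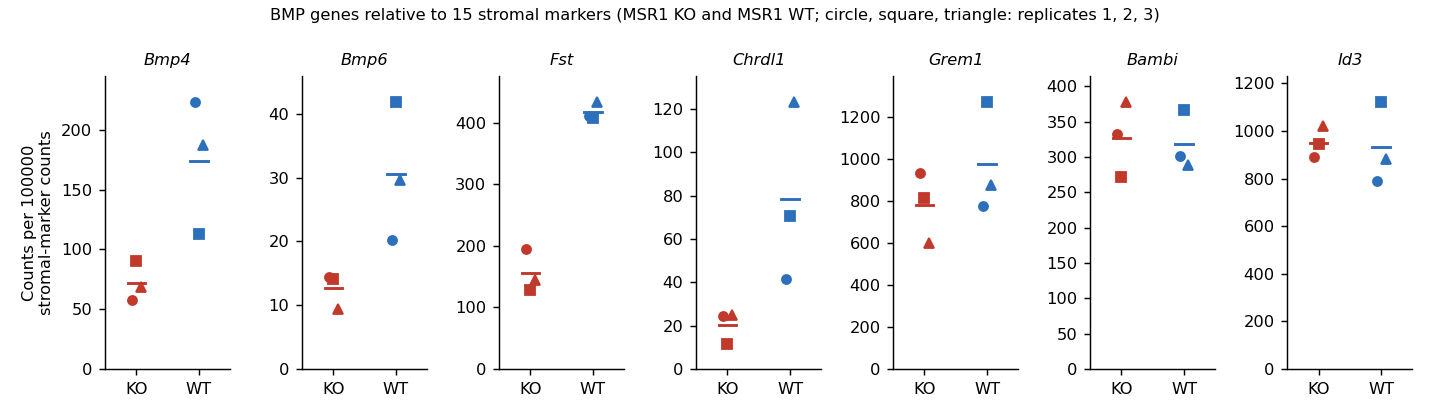
Counts per 100000 counts of the 15 stromal markers in the same library, for 7 genes in the 3 MSR1 KO and 3 MSR1 WT libraries, with lines at the group means. The groups do not overlap for Bmp4, Bmp6, Fst and Chrdl1 and overlap for Grem1, Bambi and Id3, on a scale that lifts every gene in MSR1 KO by about 1.38-fold.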

How the data were processed

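RNA-seq libraries from 3 MSR1 KO and 3 MSR1 WT macrophage cultures were analysed. The values the authors deposited are raw, unnormalized counts for each gene. The study's methods name TopHat for alignment, whereas the submitters' processing notes list fastp 0.17.1, HISAT2 2.1.0, DESeq2 1.18.1 and R 3.4.3. Build, counter and strand setting are not given in the sources used here, and 49909 of 52550 genes had the same start and end in GENCODE M21 (GRCm38), from which exon lengths were taken. The authors' normalized values, fold changes and p-values in the same table were not used.

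Total counts ranged from 36143518 to 47417448, and intervals on counts cover counting error only. Genes were filtered with filterByExpr, scaled by TMM (factors 0.981 to 1.02) and tested by edgeR 4.0.16 (glmQLFit, then glmQLFTest; R 4.3.3), with Benjamini-Hochberg adjustment over 16402 genes. Symbols turned into dates were restored for 26 of 27 genes, and of rows sharing 1 of 89 symbols the one with the most counts was used. Named pathway genes met the study's definition or an adjusted p under 0.05, or were the 2 most abundant tested genes of their role. The 5 genes most like Bmp4 and the 2 highest markers of each list were also named. The members and lists were chosen with earlier results of these data known. The steps were tested on simulated data. Alternatives were DESeq2 1.42.0, its size factors, library size alone, no filter, at least 10 counts in every library, a replicate block, and leaving out each library. None of the 37 mitochondrial genes had a count, so the mitochondrial share could not be used to check RNA quality.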

Additional observations from a re-analysis of the deposited data

How the results depend on the processing

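No gene of the 10 changed direction under any alternative. Bmp2 was the 1 gene of the 10 with an adjusted p under 0.05 in edgeR. That count was 3 with DESeq2 (Bmp2, Bmp4 and Grem1), 2 with at least 10 counts in every library, 0 without a filter and 0 with a replicate block, where 7 and 5 genes had an unadjusted p under 0.05, and 0 to 1 when a library was left out, with 1 only without MSR1 KO replicate 2. The count by the study's definition, 4, ranged from 2 (without MSR1 KO replicate 3) to 5. For the other pathway genes, 2 at an adjusted p under 0.05 became 7 with DESeq2, 4 with library size alone, 1 with the replicate block and 1 to 2 when a library was left out, and 6 by the study's definition became 5 to 10. The cause of these shifts was not tested. Bmp6 and Chrdl1 gave no value under the filter of 10 counts in every library. Same-numbered libraries did not deviate together (correlations of -0.03, 0.02 and 0.00), which gives no sign that the numbers pair them. With 3 libraries per genotype, these correlations cannot show how the cultures were prepared. Why calls were lost under the block was not tested.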
